A study of Mus musculus with 12 samples.

Results

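The clustered protocadherins were followed across 4 mouse melanoma cell lines. The members were the gene IDs whose symbol is Pcdha, Pcdhac, Pcdhb, Pcdhga, Pcdhgb or Pcdhgc followed by a number, and 58 of the 55471 gene IDs in the count files met that rule. They carry 57 distinct symbols, since the name table gives Pcdha11 to 2 IDs (ENSMUSG00000007440 and ENSMUSG00000102206). There were 14 alpha genes, 22 beta genes and 22 gamma genes, the last being 12 gamma A, 7 gamma B and 3 C-type genes. With Pcdhac1 and Pcdhac2 of the alpha group, 5 members were C-type. Members were chosen by symbol alone and no measured value entered the rule. The family itself, however, was singled out with earlier results of these data known, among them how Pcdhgb2 differed between the lines, so counts of called members are a description of a family picked in their light.

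Clustered protocadherins are cell-surface adhesion proteins of the cadherin superfamily. Each alpha and gamma gene contributes its own large first exon, the variable exon, which carries the extracellular cadherin repeats and is spliced to constant exons shared by the whole alpha or gamma group; the beta genes have no shared constant exons. In neurons each cell chooses a few variable exons by promoter choice, which depends on CTCF, cohesin and DNA methylation, and the resulting set of surface proteins gives the cell an identity used in self-recognition, while the C-type genes are used more widely.

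The 12 libraries came from the lines MeVa2.1.dOVA, MeVa2.1, MeVa2.2.dOVA and MeVa2.2, with 3 libraries per line. Per the labels all 4 were untreated murine melanoma lines of genotype WT with a subcutaneous tumour of the skin as source, and the series title calls MeVa2.1.dOVA an immune-refractory line. The labels do not spell out dOVA, so each dOVA line is taken here only as the line whose name extends that of MeVa2.1 or MeVa2.2, and MeVa2.1 and MeVa2.2 are called the parental lines for short. Nothing in them tells separate cultures from repeat libraries of 1 culture, and the p-values below reflect no more than the library-to-library spread, part or all of which may be technical. The age and number of animals behind each line, and whether a line is 1 clone, are not given in the sources used here.

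The family held 5805 to 15869 counts per library, or 0.0310% to 0.0487% of totals that lay between 16181816 and 35627069 gene counts. Levels are CPM, the usual scaling of counts to library size, here over the effective (TMM) size, and all mean values are given with the SD over n = 3 libraries. In a principal component view of all genes MeVa2.1.dOVA replicate 2 and MeVa2.2 replicate 2 stood apart from their lines, and results that turn on them are also given without them. MeVa2.2.dOVA replicate 3 also lay off its line, at 57.1 and 37.4 on the first and second components. Replicates 1 and 2 lay at 87.1 and -4.19 and at 110.7 and -26.5. Replicate 3 was the deepest library of every line, with 26291546 (MeVa2.2) to 35627069 (MeVa2.1) gene counts. The 8 melanocyte markers summed to 10 to 17.1 CPM in MeVa2.1.dOVA, 14.8 to 27.6 CPM in MeVa2.1, 9.42 to 16.2 CPM in MeVa2.2.dOVA and 15.2 to 59.9 CPM in MeVa2.2. Mitf made up most of that in the first 3 lines and averaged 11.3 to 19.2 CPM over the 4 lines. The other 7, Sox10, Pmel, Mlana, Tyr, Tyrp1, Dct and Ednrb, averaged 0.630 CPM or less in each of the first 3 lines, whereas in MeVa2.2 they averaged 0.469 CPM (Sox10) to 5.95 ± 8.41 CPM (Dct), and both MeVa2.2.dOVA and MeVa2.1 had a called decrease of Ednrb against MeVa2.2 (adjusted p = 0.00396 and 0.0262, edgeR). Of the 4 markers of dedifferentiated or neural crest-like melanoma, Axl averaged 1299 to 1736 CPM and Nes 101 to 295 CPM, but Egfr 0.144 to 4.18 CPM and Ngfr 0.0269 to 2.96 CPM. Egfr was called lower in MeVa2.2.dOVA than in its parent, Egfr and Nes higher in MeVa2.1.dOVA than in MeVa2.2.dOVA, and Ngfr higher in MeVa2.1 than in MeVa2.2. The 7 neuronal markers summed to 14.9 to 90.5 CPM in MeVa2.1.dOVA, 49.4 to 199 CPM in MeVa2.1, 3.71 to 27.9 CPM in MeVa2.2.dOVA and 17.9 to 109 CPM in MeVa2.2, most of it from Nefl and Tubb3, and the neuron-specific Rbfox3 was at 0 in 11 of the 12 libraries. Of the 4 neuronal markers tested, edgeR called 2, Tubb3 and Map2, higher in MeVa2.1.dOVA than in MeVa2.2.dOVA (adjusted p = 0.0298 and 0.0368). The 5 Schwann and glia markers summed to at most 6.22 CPM in any library. Of these S100b was called higher in MeVa2.1.dOVA than in MeVa2.2.dOVA (adjusted p = 0.0246, edgeR). The 3 endothelial markers summed to at most 1.16 CPM, the 3 keratinocyte markers to at most 0.232 CPM and the 6 immune markers to at most 5.57 CPM in any library, whereas the 6 fibroblast markers summed to 775 to 1389 CPM in MeVa2.1.dOVA, 814 to 1215 CPM in MeVa2.1, 238 to 964 CPM in MeVa2.2.dOVA and 533 to 1698 CPM in MeVa2.2. Most of that sum was Col1a1, and the list's median log2 fold change was -2.80 in MeVa2.1.dOVA against MeVa2.1, with Dcn called lower, and -2.55 in MeVa2.2.dOVA against MeVa2.2, with Dcn, Thy1 and Pdgfra called lower. The part of any of these in the results was not tested. In bulk RNA a lower level cannot be told apart into fewer cells that use an exon and less RNA per cell.

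The family lies on the plus strand of chromosome 18 between positions 36930184 and 37841873 (GRCm38, GENCODE M21), with the alpha genes first, then beta, then gamma. In that annotation all alpha genes share 3 blocks of constant exon of 2860 bases in all, and all gamma genes share 3 blocks of 2116 bases in all, so a read inside a constant exon lies in many genes at once. Such a read falls into the tally of ambiguous reads, which held 0.683% to 0.809% of the reads in each library. What the counts of an alpha or gamma gene measure is therefore mainly its private exon, the exon bases that no other gene on the same strand covers. The private exon of Pcdhgc3 runs from 37806364 to 37809743 (3380 bases), that of Pcdhgb2 from 37689828 to 37692590 (2763 bases) and that of Pcdhgb6 from 37742094 to 37744658 (2565 bases). Outside the constant exons, Pcdhgb1 and Pcdhga4 also share 1038 bases, Pcdhb21 and Pcdhb22 share 455 bases and Pcdhgb4 and Pcdhga8 share 108 bases, and reads there are lost to both genes of a pair. The private exons also resemble each other in places: of all stretches of 50 bases, 16.85% in Pcdhgb1, 16.48% in Pcdhgb2 and 11.92% in Pcdhgb6 also occur in transcripts of other genes, but 2.67% in Pcdhgb7, 1.02% in Pcdhga3 and none in Pcdhgc3 or Pcdhac2. Short reads from such stretches can be lost or split, so the levels of the gamma B genes are uncertain in size. BC037039, which is antisense to Pcdhgc3, held 333 counts over all 12 libraries and Gm26672, antisense to Pcdhga10, Pcdhgb7, Pcdhga11 and Pcdhga12, held 2 counts.

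All 4 lines expressed the family, but each used a limited set of its exons. At 0.5 CPM or more in all 3 libraries, 16 members were detected in MeVa2.1.dOVA, 21 in MeVa2.1, 21 in MeVa2.2.dOVA and 17 in MeVa2.2. Of the 58 members, 14 were detected at that level in all 4 lines, 1 of them alpha, 7 beta and 6 gamma, and 22 were detected in at least 1 line. At the other end, 9 members had 0 counts in all 12 libraries, 8 of them alpha genes and the ninth Pcdhb1; 3 counts over the 3 libraries of a line, the limit that a count of 0 allows, correspond to 0.0411 to 0.0483 CPM. Of the 49 members with counts, 23 passed the filter on low counts and were tested, namely 1 alpha, 10 beta and 12 gamma genes, 10 of the last being gamma A or B. The highest value of any of the 35 members that were not tested was 0.714 CPM, for Pcdhb11 in MeVa2.1 replicate 3.

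**Figure D1:**
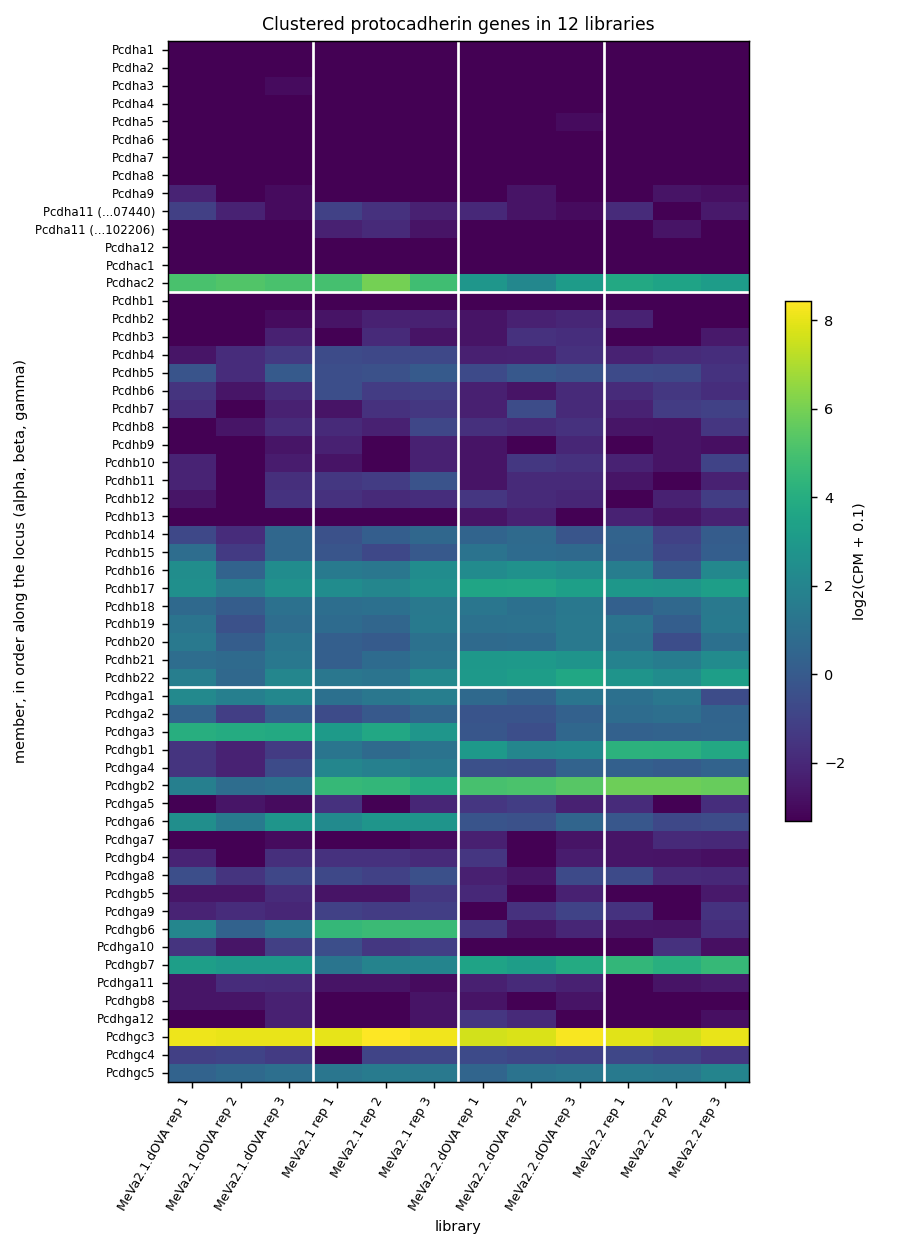
Level of each of the 58 members (down the page, in order along the locus) in each of the 12 libraries (across), coloured by log2(CPM + 0.1); white lines part the lines and the alpha, beta and gamma groups, and colours are to be compared along a row. Pcdhac2 stands alone among the alpha genes, the beta genes from Pcdhb14 to Pcdhb22 carry most of the beta signal, and Pcdhgb2 and Pcdhgb6 change colour between lines while Pcdhgc3 stays the brightest row in all 12 libraries.

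The most abundant member in every line was Pcdhgc3, a C-type gamma gene. Per kilobase of private exon it averaged 79.6 ± 3.84 CPM in MeVa2.1.dOVA, 87.7 ± 13.7 CPM in MeVa2.1, 71.6 ± 18.7 CPM in MeVa2.2.dOVA and 68.8 ± 9.79 CPM in MeVa2.2. On that scale it made up 71.5% ± 2.01, 64.6% ± 1.55, 67.1% ± 3.50 and 58.6% ± 2.98 of the whole family in the same order of lines. Without scaling by length, Pcdhgc3 had 284, 262 and 261 CPM in MeVa2.1.dOVA, 254, 346 and 290 CPM in MeVa2.1, 196, 216 and 314 CPM in MeVa2.2.dOVA and 236, 198 and 263 CPM in MeVa2.2. The libraries of all 4 lines overlapped, and Pcdhgc3 passed the test in none of the comparisons (adjusted p from 0.416 to 0.954, edgeR). The other C-type gamma genes were far lower, with Pcdhgc5 at 1.54 ± 0.320, 2.59 ± 0.248, 1.94 ± 0.556 and 3.04 ± 0.710 CPM in the 4 lines and Pcdhgc4 below 0.528 CPM in every library.

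Among the alpha genes only Pcdhac2, the C-type gene nearest the constant exons, reached 0.5 CPM in any line. It had 32.9, 37.2 and 33.7 CPM in MeVa2.1.dOVA, 31.7, 62.4 and 28.5 CPM in MeVa2.1, 7.12, 4.27 and 8.54 CPM in MeVa2.2.dOVA and 13.4, 11.3 and 8.85 CPM in MeVa2.2. Every library of the MeVa2.1 lines lay above every library of the MeVa2.2 lines. Per kilobase of private exon Pcdhac2 held 97.8% to 99.2% of the alpha signal in each line. The other 13 alpha genes together came to 0.0556 to 0.491 CPM per library. Pcdhac1, the other C-type alpha gene, had no count in any library.

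The beta genes, each read as a whole since they have no constant exons, were spread more evenly. Pcdhb17 was highest per kilobase of private exon in all 12 libraries, with 24.0% ± 4.29, 22.8% ± 3.12, 25.6% ± 3.10 and 28.1% ± 4.40 of the beta signal in MeVa2.1.dOVA, MeVa2.1, MeVa2.2.dOVA and MeVa2.2. Pcdhb17 had 5.75, 3.20 and 6.02 CPM in MeVa2.1.dOVA, 5.13, 4.16 and 5.93 CPM in MeVa2.1, 11.9, 12.2 and 9.90 CPM in MeVa2.2.dOVA and 7.43, 6.80 and 9.61 CPM in MeVa2.2. The beta genes that reached 0.5 CPM in all 3 libraries of all 4 lines were Pcdhb16 to Pcdhb22, the 7 nearest the gamma group, whereas Pcdhb2 to Pcdhb4 and Pcdhb6 to Pcdhb13 stayed below 0.5 CPM in at least 1 library of every line. The summed beta level was 22.0 ± 9.51 CPM in MeVa2.1.dOVA, 23.2 ± 6.80 CPM in MeVa2.1, 45.6 ± 2.01 CPM in MeVa2.2.dOVA and 30.3 ± 9.39 CPM in MeVa2.2.

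**Figure D2:**
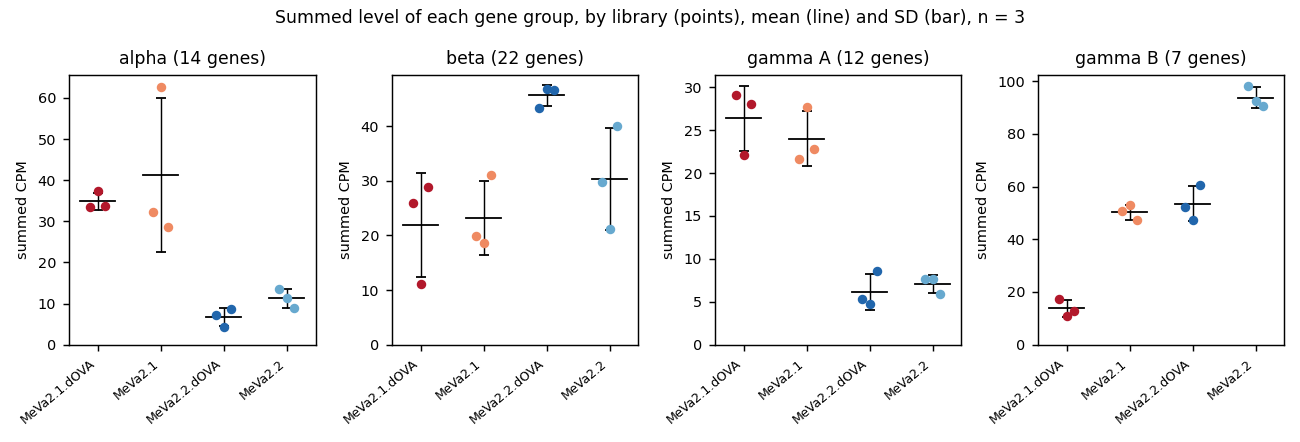
Summed CPM (vertical axis, linear from 0) of the 14 alpha, 22 beta, 12 gamma A and 7 gamma B genes in each line; points are libraries, the line is the mean and the bar the SD (n = 3). Alpha and gamma A are higher in both MeVa2.1 lines than in both MeVa2.2 lines, and gamma B is lowest in MeVa2.1.dOVA, at 13.8 CPM on average, and highest in MeVa2.2, at 93.7 CPM.

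The gamma A and B genes were used in different proportions in the lines. Scaled per kilobase of private exon, Pcdhga3 led in MeVa2.1.dOVA with 39.1% ± 5.91 of the gamma A and B signal, followed by Pcdhgb7 with 21.7% ± 2.48 and Pcdhga6 with 12.5% ± 4.21. In MeVa2.1 the leading gene was Pcdhgb6 with 33.2% ± 2.79, followed by Pcdhgb2 with 25.2% ± 4.49 and Pcdhga3 with 12.6% ± 3.04. The other lines had one order between them: Pcdhgb2 led with 59.0% ± 4.46 in MeVa2.2.dOVA and 53.8% ± 1.42 in MeVa2.2, Pcdhgb7 came next with 20.0% ± 1.64 and 21.4% ± 3.81, and Pcdhgb1 followed with 9.76% ± 3.74 and 17.1% ± 2.29. On that scale the leading gene was the same in all 3 libraries of each line. Without scaling by length, Pcdhgb2 led in MeVa2.1 replicate 1, at 23.1 CPM against 22.8 CPM for Pcdhgb6.

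Use was narrower in the MeVa2.2 lines. The effective number of gamma A and B exons (inverse Simpson index of the shares per kilobase) was 4.74, 3.47 and 4.90 in MeVa2.1.dOVA, 4.64, 4.86 and 4.87 in MeVa2.1, 2.72, 2.22 and 2.58 in MeVa2.2.dOVA and 2.79, 2.67 and 2.73 in MeVa2.2. All 6 libraries of the MeVa2.1 lines lay above all 6 of the MeVa2.2 lines. The gamma A genes summed to 26.4 ± 3.78 CPM in MeVa2.1.dOVA, 24.0 ± 3.21 CPM in MeVa2.1, 6.19 ± 2.1 CPM in MeVa2.2.dOVA and 7.06 ± 1.01 CPM in MeVa2.2. The gamma B genes summed to 13.8 ± 3.34, 50.3 ± 2.86, 53.5 ± 6.66 and 93.7 ± 4.0 CPM in those lines.

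How alike any pair of libraries was in exon use was measured as the percentage of gamma A and B signal (CPM) that they had in common, the sum over genes of the smaller of both shares. Among libraries of the same line this was 84.1% to 91.6% in MeVa2.1.dOVA, 86.5% to 91.3% in MeVa2.1, 90.3% to 92.0% in MeVa2.2.dOVA and 91.2% to 95.6% in MeVa2.2. Between MeVa2.1.dOVA and MeVa2.1 it was 36.2% to 51.9%, below every within-line value. Between MeVa2.2.dOVA and MeVa2.2 it was 85.9% to 94.2%, which overlapped the within-line values. Between MeVa2.1 and MeVa2.2 it was 36.9% to 44.7%, and between MeVa2.1.dOVA and MeVa2.2.dOVA it was 30.3% to 39.3%. MeVa2.1.dOVA and MeVa2.1 thus had about as little gamma A and B signal in common as the parental lines did, whereas MeVa2.2.dOVA and MeVa2.2 had nearly as much in common as replicates of 1 line.

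**Figure D3:**
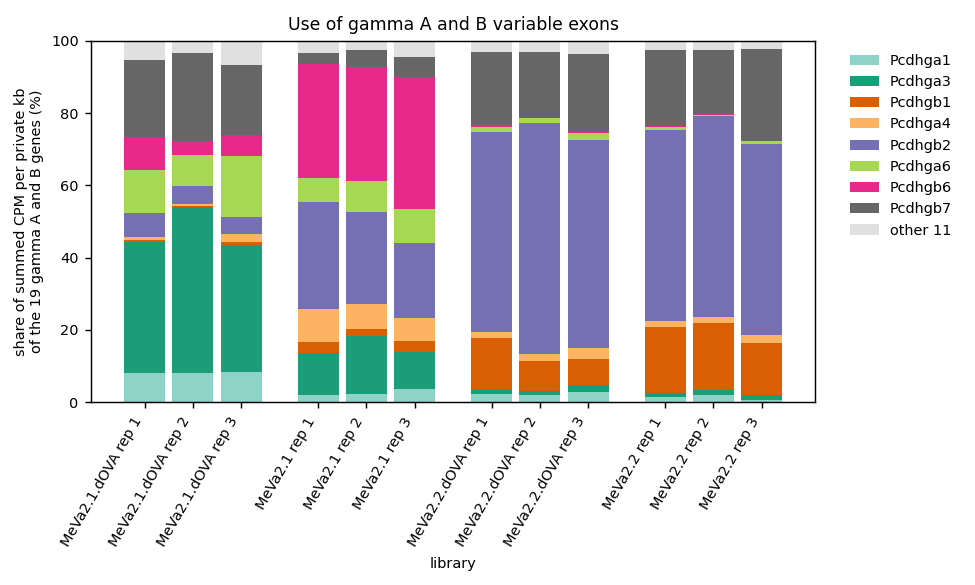
Share of each gamma A or B gene in the summed CPM per kilobase of private exon of the 19 such genes (vertical axis, %), one bar per library; 8 genes are coloured and the other 11 are grouped in grey. Pcdhga3 is the widest band in MeVa2.1.dOVA, Pcdhgb6 in MeVa2.1 and Pcdhgb2 in both MeVa2.2 lines.

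MeVa2.1.dOVA was set against MeVa2.1, the line whose name it extends. Differences between lines were tested with edgeR's quasi-likelihood test over all 13985 genes that passed the filter, and a gene was called at a Benjamini-Hochberg adjusted p below 0.05. Of the 23 tested members 4 fell in MeVa2.1.dOVA and none rose, against a background of 0.486% of all tested genes called, 0.386% of them as lower. The 4 were 3 of the 4 tested gamma B genes, Pcdhgb1, Pcdhgb2 and Pcdhgb6, and the gamma A gene Pcdhga4, all adhesion proteins that differ in their extracellular repeats. No alpha, beta or C-type gene was called; of the 10 beta genes none had an unadjusted p below 0.05 and DESeq2 called none either. The median log2 fold change was -0.22 over the 23 members and 0.002 over all tested genes.

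Pcdhgb2 had 3.24, 1.72 and 1.98 CPM in MeVa2.1.dOVA and 23.1, 21.8 and 15.5 CPM in MeVa2.1. The lowest MeVa2.1 library was several times the highest MeVa2.1.dOVA library, and the log2 fold change was -3.13 ± 0.27 (SE, adjusted p = 0.00133). Pcdhgb6 had 4.10, 1.18 and 2.29 CPM in MeVa2.1.dOVA and 22.8, 25.4 and 25.3 CPM in MeVa2.1, a log2 fold change of -3.28 ± 0.48 (adjusted p = 0.0193). The leading gamma B gene of MeVa2.1 was thus below Pcdhgb7 in MeVa2.1.dOVA, at 2.52 ± 1.47 against 8.44 ± 1.06 CPM, and close to Pcdhgb2 (2.31 ± 0.816 CPM). Pcdhgb1 had 0.245, 0.118 and 0.315 CPM in MeVa2.1.dOVA and 2.24, 1.59 and 2.14 CPM in MeVa2.1 (log2 fold change -3.04 ± 0.40, adjusted p = 0.0193). Pcdhga4, which shares exon with Pcdhgb1, had 0.245, 0.118 and 0.545 CPM in MeVa2.1.dOVA and 4.09, 3.34 and 2.72 CPM in MeVa2.1 (log2 fold change -3.37 ± 0.52, adjusted p = 0.0240). The MeVa2.1.dOVA values rest on 4, 2 and 11 counts of Pcdhgb1 and 4, 2 and 19 counts of Pcdhga4. The sizes of both fold changes depend on these few counts. For all 4 genes the libraries of both lines were apart.

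The remaining tested gamma B gene had the opposite sign. Pcdhgb7 had 9.66, 7.87 and 7.80 CPM in MeVa2.1.dOVA and 2.29, 3.77 and 3.84 CPM in MeVa2.1, with no overlap, and its log2 fold change of 1.35 ± 0.27 missed the threshold (adjusted p = 0.0607). It passed with replicate numbers fitted as a block (1.36, adjusted p = 0.0230), with no filter (adjusted p = 0.0485) and in DESeq2 (adjusted p = 0.000342). Pcdhga3 had 16.6, 14.9 and 14.1 CPM in MeVa2.1.dOVA and 8.41, 13.0 and 7.25 CPM in MeVa2.1, again without overlap, and its log2 fold change of 0.67 ± 0.32 did not pass (adjusted p = 0.468). Pcdhga1 likewise did not overlap, at 4.53, 3.26 and 4.21 CPM in MeVa2.1.dOVA and 1.91, 2.41 and 3.13 CPM in MeVa2.1 (log2 fold change 0.68 ± 0.47, adjusted p = 0.645). In all, the libraries of 8 of the 23 members did not overlap, 3 higher and 5 lower in MeVa2.1.dOVA, all of them gamma genes, against 21.1% of all tested genes, 10.2% higher and 10.9% lower. The alpha gene Pcdhac2 had a log2 fold change of -0.24 ± 0.33 (adjusted p = 0.840), and the 10 beta genes had a median of -0.04.

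Pcdhgb2 kept its call under all 18 alternatives, leave-one-out included. Its calls and p-values in all comparisons are a description, since how it differed between the lines was known when the family was chosen. The other 3 calls were lost in some: Pcdhgb1 and Pcdhga4 with only these 2 lines fitted (adjusted p = 0.0759 and 0.0774) and without MeVa2.1.dOVA replicate 1, 2 or 3 or MeVa2.1 replicate 1 or 2, and Pcdhgb6 without MeVa2.1.dOVA replicate 2 or 3 or MeVa2.1 replicate 1 or 2, with adjusted p up to 0.141, while log2 fold changes over all 18 alternatives stayed between -4.19 and -2.76. Without both libraries that stand apart, an alternative added after seeing the data, Pcdhgb2 was the 1 member called.

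**Figure D4:**
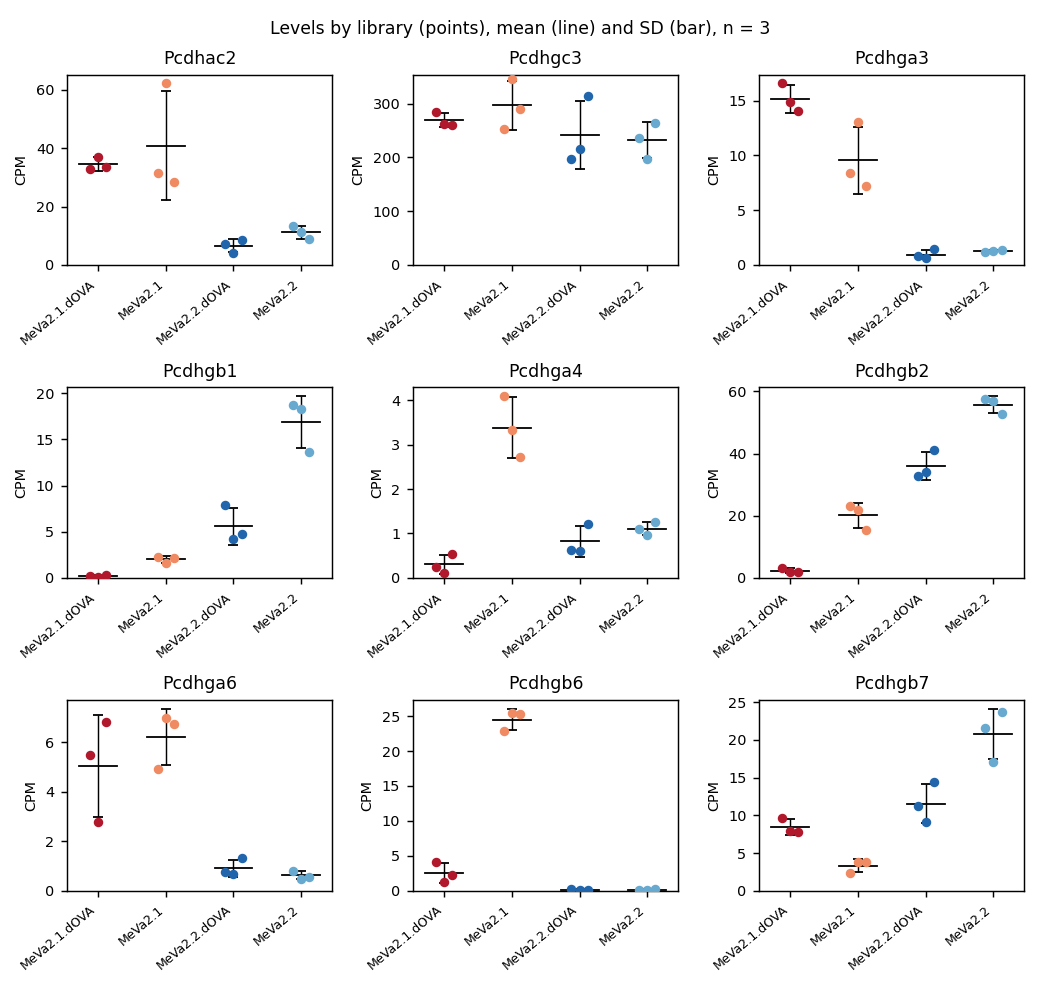
CPM (vertical axes, linear from 0, scaled per gene) of 9 members in the 4 lines; points are libraries, the line is the mean and the bar the SD (n = 3). Pcdhac2, Pcdhga3 and Pcdhga6 are high in both MeVa2.1 lines, Pcdhgb6 and Pcdhga4 peak in MeVa2.1, at 24.5 and 3.38 CPM on average, Pcdhgb1 and Pcdhgb2 peak in MeVa2.2, and Pcdhgc3 overlaps across all lines.

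MeVa2.2.dOVA was set against MeVa2.2 in the same way. Of the 23 members 1 fell and none rose, with 1.99% of all tested genes called and 1.57% as lower. The gene was Pcdhgb1, with 7.86, 4.16 and 4.76 CPM in MeVa2.2.dOVA and 18.7, 18.3 and 13.7 CPM in MeVa2.2. The libraries were apart and the log2 fold change was -1.59 ± 0.33 (adjusted p = 0.0393). This call was lost with only these 2 lines fitted (adjusted p = 0.118) and when any library other than MeVa2.1.dOVA replicate 2 was left out, with adjusted p up to 0.161 and log2 fold changes between -1.91 and -1.40 over all 18 alternatives.

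Pcdhgb2 had 32.6, 34.1 and 41.1 CPM in MeVa2.2.dOVA and 57.7, 56.9 and 52.7 CPM in MeVa2.2, without overlap, but its log2 fold change of -0.63 ± 0.24 did not pass (adjusted p = 0.216). Pcdhgb7 had 11.2, 9.14 and 14.4 CPM in MeVa2.2.dOVA and 21.6, 17.1 and 23.7 CPM in MeVa2.2, also without overlap (log2 fold change -0.85 ± 0.27, adjusted p = 0.138). The 3 gamma B genes most used in these lines were thus each at lower levels in all 3 MeVa2.2.dOVA libraries. With all libraries the 10 tested beta genes all had positive fold changes, with a median of 0.50 on the log2 scale. The libraries of 5 of them did not overlap. None of the 10 was called by edgeR, with 1 at an unadjusted p below 0.05, or by DESeq2. Over the whole family 11 of the 23 members did not overlap, 5 higher and 6 lower in MeVa2.2.dOVA, against 16.9% of all tested genes, 7.67% higher and 9.22% lower. Among the beta genes Pcdhb21 had 7.70, 7.87 and 6.73 CPM in MeVa2.2.dOVA and 3.66, 2.92 and 5.02 CPM in MeVa2.2, a log2 fold change of 0.94 ± 0.34 (adjusted p = 0.194). Without MeVa2.2 replicate 2 and MeVa2.1.dOVA replicate 2, the libraries that stand apart, Pcdhgb1 remained the only call.

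The parental lines differed in more members. Of the 23 members 4 were higher and 3 lower in MeVa2.1 than in MeVa2.2, with 4.48% of all tested genes called (2.82% higher and 1.66% lower), and all 7 calls held under all 18 alternatives. The higher genes were Pcdhac2, Pcdhga3, Pcdhga6 and Pcdhgb6. The lower genes were Pcdhgb1, Pcdhgb2 and Pcdhgb7, so all 4 tested gamma B genes differed and in opposite directions.

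The difference was largest for Pcdhgb6, with 22.8, 25.4 and 25.3 CPM in MeVa2.1 and 0.0581, 0.0540 and 0.190 CPM in MeVa2.2, the last resting on 1, 1 and 5 counts. The log2 fold change was 7.74 ± 0.64 (adjusted p = 7.05e-05), and its size depends on those few counts. Pcdhga6 had 4.91, 6.999 and 6.75 CPM in MeVa2.1 and 0.813, 0.486 and 0.570 CPM in MeVa2.2, a log2 fold change of 3.32 ± 0.44 (adjusted p = 0.00147). Along the locus both lie between Pcdhgb2 and Pcdhgb7, which were lower in MeVa2.1. Pcdhga3 had 8.41, 13.0 and 7.25 CPM in MeVa2.1 and 1.16, 1.24 and 1.33 CPM in MeVa2.2 (log2 fold change 2.93 ± 0.35, adjusted p = 0.000678). Pcdhac2, with the values given above, had a log2 fold change of 1.87 ± 0.34 (adjusted p = 0.00912).

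Pcdhgb1 had 2.24, 1.59 and 2.14 CPM in MeVa2.1 and 18.7, 18.3 and 13.7 CPM in MeVa2.2, a log2 fold change of -3.08 ± 0.35 (adjusted p = 0.000524). Pcdhgb7 had 2.29, 3.77 and 3.84 CPM in MeVa2.1 and 21.6, 17.1 and 23.7 CPM in MeVa2.2 (log2 fold change -2.65 ± 0.28, adjusted p = 0.000358). Pcdhgb2, high in both lines, had 23.1, 21.8 and 15.5 CPM in MeVa2.1 and 57.7, 56.9 and 52.7 CPM in MeVa2.2 (log2 fold change -1.47 ± 0.24, adjusted p = 0.00593). For all 7 called genes the libraries did not overlap, as was so for 12 of the 23 members, 6 in each direction, against 23.4% of all tested genes, 12.4% higher and 11% lower. Fitting replicate numbers as a block let 3 further members pass: Pcdhb21 (log2 fold change -1.21, adjusted p = 0.0299, against -1.20 and 0.0831 without it), Pcdhb22 (-1.25 and 0.0157, against -1.23 and 0.143) and Pcdhga4 (1.64 and 0.0314, against 1.60 and 0.0897). Over all tested genes the block raised the calls from 627 to 1330.

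**Figure D5:**
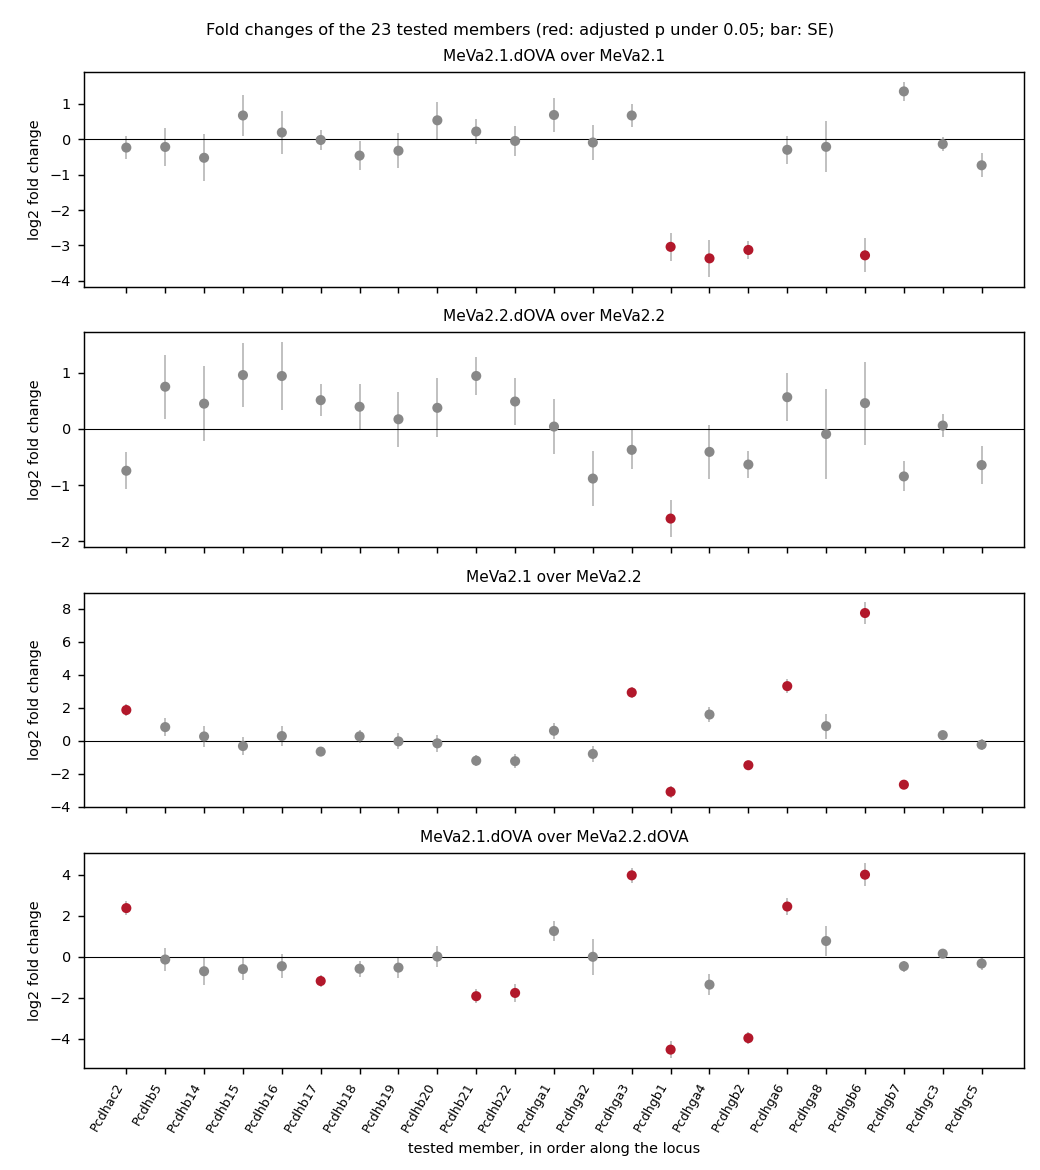
Log2 fold changes (vertical axes, with different ranges) of the 23 tested members in order along the locus, for 4 comparisons; bars are the SE implied by the test and red points have an adjusted p under 0.05. Called members are gamma A and B genes in the first panel and Pcdhgb1 alone in the second. In the third they are gamma A and B genes and Pcdhac2, and between the dOVA lines 3 beta genes are called besides such genes. Pcdhgb7 lies above 0 in the first panel, at 1.35, and below 0 in the others.

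Between the dOVA lines 9 of the 23 members were called, 4 higher and 5 lower in MeVa2.1.dOVA than in MeVa2.2.dOVA, with 11.3% of all tested genes called, 6.45% higher and 4.81% lower. The higher genes were again Pcdhac2, Pcdhga3, Pcdhga6 and Pcdhgb6. The lower genes were Pcdhgb1 and Pcdhgb2 and the beta genes Pcdhb17, Pcdhb21 and Pcdhb22.

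Pcdhgb2 had 3.24, 1.72 and 1.98 CPM in MeVa2.1.dOVA and 32.6, 34.1 and 41.1 CPM in MeVa2.2.dOVA, a log2 fold change of -3.97 ± 0.28 (adjusted p = 1.28e-05). Pcdhgb1 had 0.245, 0.118 and 0.315 CPM in MeVa2.1.dOVA and 7.86, 4.16 and 4.76 CPM in MeVa2.2.dOVA (log2 fold change -4.53 ± 0.41, adjusted p = 6.88e-05). Both were thus at their lowest in MeVa2.1.dOVA. The Pcdhgb1 values there rest on 4, 2 and 11 counts, and the size of its fold change depends on them. Pcdhga3 had 16.6, 14.9 and 14.1 CPM in MeVa2.1.dOVA and 0.791, 0.609 and 1.42 CPM in MeVa2.2.dOVA (log2 fold change 3.97 ± 0.37, adjusted p = 7.06e-05). Pcdhgb6 had 4.10, 1.18 and 2.29 CPM in MeVa2.1.dOVA and 0.264, 0.0554 and 0.139 CPM in MeVa2.2.dOVA (log2 fold change 4.004 ± 0.58, adjusted p = 0.00124). Even at its reduced level Pcdhgb6 was thus above every MeVa2.2.dOVA library. The MeVa2.2.dOVA values rest on 5, 1 and 5 counts, and the size of the Pcdhgb6 fold change depends on them. Pcdhga6 had 5.50, 2.78 and 6.82 CPM in MeVa2.1.dOVA and 0.738, 0.665 and 1.31 CPM in MeVa2.2.dOVA (log2 fold change 2.45 ± 0.42, adjusted p = 0.00367), and Pcdhac2 had a log2 fold change of 2.38 ± 0.34 (adjusted p = 0.00131).

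The 3 beta genes lie beside or near each other at the gamma end of the beta group. Pcdhb21 had 1.71, 1.60 and 2.52 CPM in MeVa2.1.dOVA and 7.70, 7.87 and 6.73 CPM in MeVa2.2.dOVA, a log2 fold change of -1.92 ± 0.35 (adjusted p = 0.00519). Pcdhb22, which shares exon with Pcdhb21, had 3.12, 1.48 and 4.07 CPM in MeVa2.1.dOVA and 7.75, 9.20 and 12.7 CPM in MeVa2.2.dOVA (log2 fold change -1.76 ± 0.43, adjusted p = 0.0216). Pcdhb17, with the values given above, had a log2 fold change of -1.18 ± 0.29 (adjusted p = 0.0232). All 3 were lower in every MeVa2.1.dOVA library than in any MeVa2.2.dOVA library. In all, 11 of the 23 members did not overlap, 5 higher and 6 lower, against 29.9% of all tested genes, 16.3% higher and 13.7% lower. Pcdhgb7, called between the parental lines, had a log2 fold change of -0.46 ± 0.27 between the dOVA lines (adjusted p = 0.295). Pcdhb22 lost its call with only these 2 lines fitted (adjusted p = 0.0511) and when MeVa2.1.dOVA replicate 1, MeVa2.1.dOVA replicate 2 or MeVa2.2.dOVA replicate 2 was left out (adjusted p up to 0.0776, log2 fold change -1.82 to -1.44), and Pcdhb17 when one of these or MeVa2.2.dOVA replicate 1 was (adjusted p up to 0.0877, log2 fold change -1.28 to -0.93). Pcdhb17 also lost its call with only these 2 lines fitted (adjusted p = 0.0747), with no filter (0.0505) and without both libraries that stand apart (0.0521). The other 7 calls held under all 18 alternatives. With no filter on low counts Pcdhga10, one of the members not tested otherwise, was called higher in MeVa2.1.dOVA (adjusted p = 0.0215), with 4, 1 and 13 counts in MeVa2.1.dOVA and none in MeVa2.2.dOVA.

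The last comparison asked whether each dOVA line differed from its parent by the same amount. Pcdhgb2 is given as a description, since its difference was known when the family was chosen: its log2 fold change was -3.13 in MeVa2.1.dOVA against MeVa2.1 and -0.63 in MeVa2.2.dOVA against MeVa2.2, a difference of -2.49 ± 0.35 (SE). The background was 0.0858% of all tested genes called, or 12 genes (0.0501% with a higher and 0.0358% with a lower difference), with 1187 at an unadjusted p below 0.05. Pcdhgb2 was called with all libraries, but in only 6 of 17 alternatives and in 2 of the 12 that left out 1 library. No other member passed. Pcdhgb7, with log2 fold changes of 1.35 and -0.85 and no overlap in either, had a difference of 2.19 ± 0.38 (adjusted p = 0.0684). Pcdhgb6 had a difference of -3.74 ± 0.88 (adjusted p = 0.156) and Pcdhga4 of -2.96 ± 0.70 (adjusted p = 0.157). The size of the former depends on 5, 1 and 5 counts in MeVa2.2.dOVA and 1, 1 and 5 in MeVa2.2. That of the latter depends on 4, 2 and 19 counts in MeVa2.1.dOVA. Pcdhgb1, called in both comparisons, had a difference of -1.45 ± 0.51 (adjusted p = 0.401), so its larger fold change in MeVa2.1.dOVA was not shown to differ from that in MeVa2.2.dOVA. The size of its difference depends on 4, 2 and 11 counts in MeVa2.1.dOVA.

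Genes known to act on the clustered protocadherins were called by edgeR no more often than all tested genes. Of 26 listed regulators of promoter choice and silencing 25 were tested, and edgeR called none in MeVa2.1.dOVA against MeVa2.1, in MeVa2.2.dOVA against MeVa2.2 or between the parents, where 0.486%, 1.99% and 4.48% of all tested genes were called. At an unadjusted p below 0.05 there were 3, 5 and 2, and DESeq2 called 0, 2 and 0. Of all 13985 tested genes, 1567, 2298, 2462 and 3804 had an unadjusted p below 0.05 in edgeR. The order is the MeVa2.1 pair, the MeVa2.2 pair, the parents and the dOVA lines. DESeq2 called 394, 974, 1207 and 2428 of them in that order. The same numbers are the background for the lists below. Ctcf, the insulator protein that joins promoters to the enhancers of the locus, averaged 103 ± 25.4 CPM in MeVa2.1.dOVA, 90.4 ± 29.4 CPM in MeVa2.1, 124 ± 16.8 CPM in MeVa2.2.dOVA and 109 ± 18.6 CPM in MeVa2.2. Smchd1, a repressor of the clusters, averaged 142 ± 9.41, 120 ± 21.6, 143 ± 18.4 and 150 ± 27.9 CPM, and Dnmt3b, a DNA methyltransferase that acts on their promoters in mouse neurons, 1.78 ± 0.469, 1.46 ± 0.212, 2.21 ± 0.548 and 2.53 ± 0.704 CPM in the same lines. Between the dOVA lines 2 of the 25 regulators (8.0%, against 11.3% of all tested genes) were lower in MeVa2.1.dOVA, Atf7ip (log2 fold change -0.60, adjusted p = 0.0201) and Lrif1 (-0.94, adjusted p = 0.0225), a partner of the methyltransferase Setdb1 and a partner of Smchd1. There 4 regulators had an unadjusted p below 0.05 in edgeR and DESeq2 called 3. Of 19 signalling and processing partners, all tested, edgeR called 1 in the 4 comparisons, Axin1, lower in MeVa2.1.dOVA than in MeVa2.2.dOVA (-0.71, adjusted p = 0.0269), or 5.26% against 11.3% of all tested genes. DESeq2 called 1, 0, 1 and 1 partners in the MeVa2.1 pair, the MeVa2.2 pair, the parents and the dOVA lines, and 3, 1, 2 and 2 had an unadjusted p below 0.05 in edgeR.

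Among relatives outside the clusters, 8 of 12 non-clustered protocadherins were tested and edgeR called none in a dOVA line against its parent, with 3 in the MeVa2.1 pair and 4 in the MeVa2.2 pair at an unadjusted p below 0.05 and 1 called by DESeq2 in each. It called 2 of the 8 (25.0%) both between the parents and between the dOVA lines, against 4.48% and 11.3% of all tested genes. Pcdh17 was lower in the MeVa2.1 lines, with 0.489, 0.296 and 0.115 CPM in MeVa2.1.dOVA against 13.3, 5.54 and 23.4 CPM in MeVa2.2.dOVA (log2 fold change -5.64, adjusted p = 0.000741) and 2.13, 0.875 and 0.878 CPM in MeVa2.1 against 11.8, 5.18 and 12.3 CPM in MeVa2.2 (-2.93, adjusted p = 0.0237). Pcdh1 was higher, by 0.70 on the log2 scale in both comparisons (adjusted p = 0.0266 between the dOVA lines and 0.0483 between the parents). Of 10 listed cadherins that are not protocadherins 5 were tested and edgeR called 4, all between the dOVA lines, where 11.3% of all tested genes were called. DESeq2 called 2 in MeVa2.2.dOVA against MeVa2.2 and 2 between the parents as well, and edgeR had 3 at an unadjusted p below 0.05 in each of these. Between the dOVA lines Cdh2, or N-cadherin, and Cdh13 were higher in MeVa2.1.dOVA (log2 fold changes 1.001 and 1.95, adjusted p = 0.0153 and 0.0133), and Cdh6 was lower (-3.82, adjusted p = 0.00452). Cdh19 was lower too (adjusted p = 0.0340), with 0.0612, 0 and 0 CPM in MeVa2.1.dOVA and 0.369, 1.61 and 0.807 CPM in MeVa2.2.dOVA, and no fold is given because MeVa2.1.dOVA lies below the limit that a count of 0 allows. Of 16 other genes in or beside the locus 14 were tested, and 1 was called between the parents and 1 between the dOVA lines, 7.14% each time. Wdr55 was lower in MeVa2.1 than in MeVa2.2 (log2 fold change -0.84, adjusted p = 0.0316) and Diaph1, just beyond the gamma group, was higher in MeVa2.1.dOVA than in MeVa2.2.dOVA (1.09, adjusted p = 0.0152). No gene of this list was called in a dOVA line against its parent by edgeR or DESeq2, with 1 at an unadjusted p below 0.05 in the MeVa2.1 pair and 2 in the MeVa2.2 pair.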

How the data were processed

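Counts of reads per gene, as deposited in 1 file per library, were used without other normalization. Per the labels' protocols libraries were stranded mRNA libraries; the submitters' processing notes name HTSeq 0.10.0, STAR 2.6.0c, GRCm38 and DESeq2 1.30.1, while the annotation and the counting mode and strand are not given in the sources used here. The 5 tally lines held 35.8% to 40.0% of reads and stayed out of library sizes and tests. Exons came from GENCODE M21.

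Members and lists were chosen with earlier results of these data known. Any member could be named; called members and the leading member of each group and line are given in full, and from each list at most 4 called genes by adjusted p plus preset genes.

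In R 4.3.3, edgeR 4.0.16 (filterByExpr, TMM, glmQLFit, glmQLFTest) was fitted to all 12 libraries with one mean per line (13985 genes, 8 residual degrees of freedom), with Benjamini-Hochberg adjustment over all of them; the SE is the fold change over the square root of F. The procedure was tested on simulated data. Alternatives were RLE scaling, no filter, the replicate block, only the 2 lines compared, DESeq2 1.42.0, and each library left out. Same-numbered libraries' deviations correlated by 0.503, 0.488 and 0.534 for MeVa2.1.dOVA with MeVa2.1, 0.429, 0.405 and 0.328 between the parents and 0.105, 0.516 and 0.416 between the dOVA lines, all above 0.1, the limit for treating numbers as pairs. The pairing comes from these values alone, and libraries with different numbers were not compared in this way. The labels leave the numbers unexplained. The main fit had no replicate term, and results with the block are given beside it. For MeVa2.2.dOVA with MeVa2.2 the values were 0.0820, 0.640 and 0.521, so those numbers were not treated as pairs. No replicate pair agreed within counting noise (lowest chi-square per degree of freedom 27.3). Limits from a count of 0 cover counting error only.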

Additional observations from a re-analysis of the deposited data

Results flagged for a closer look

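Pcdhgb2 was singled out because the difference between MeVa2.1.dOVA and MeVa2.1 was unlike that between MeVa2.2.dOVA and MeVa2.2, with a difference of the log2 fold changes of -2.49. MeVa2.1.dOVA averaged 2.31 ± 0.816 CPM and MeVa2.1 20.1 ± 4.11 CPM of it (SD, n = 3 each). MeVa2.2.dOVA averaged 35.9 ± 4.52 CPM and MeVa2.2 55.8 ± 2.67 CPM. Within the gamma A and B genes Pcdhgb2 held 5.66% ± 1.14 of CPM in MeVa2.1.dOVA, 27.1% ± 4.95 in MeVa2.1, 60.4% ± 4.48 in MeVa2.2.dOVA and 55.4% ± 1.31 in MeVa2.2. Of its private exon, 16.48% of the stretches of 50 bases also occur in transcripts of other genes, and the part of that in the difference was not tested.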

How the results depend on the processing

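No fold change of a called member changed direction under any alternative run. Ratios of summed levels close to 0 did. Between MeVa2.1.dOVA and MeVa2.1 the alpha log2 ratio (-0.24) was 0.20 without MeVa2.1 replicate 2, and the beta ratio (-0.08) was 0.24 with the second MeVa2.1.dOVA library left out and 0.19 without MeVa2.1 replicate 3. Between the dOVA lines the gamma ratio (0.033) was -0.007 over plain totals and -0.016, -0.077 and -0.045 without replicate 1 of MeVa2.1.dOVA and without replicates 1 and 2 of MeVa2.2.dOVA, left out one at a time. The number of called members between MeVa2.1.dOVA and MeVa2.1 (4) was 5 with no filter, 5 with DESeq2, 2 with only those lines fitted, 1 without both libraries that stand apart (a choice made after seeing the data) and 1 to 4 with each library left out in turn. Over all genes 68 were called with all libraries, and 272, 394, 25, 2 and 1 to 83 in those settings. Without MeVa2.1.dOVA replicate 2 or 3 or MeVa2.1 replicate 1 or 2, the 1 member called was the only gene called. Between MeVa2.2.dOVA and MeVa2.2 (1) the number of called members was 0 with only those lines fitted, 2 with DESeq2 and 0 to 1 with each library left out. For the difference of both differences (1) it was 3 with no filter, 4 with DESeq2, 0 without both libraries that stand apart and 0 to 1 with each left out. There Pcdhgb2 kept its call with 2 of the 12 libraries left out in turn, and in 6 of 17 alternatives in all. Over all tested genes, 278 were called between MeVa2.2.dOVA and MeVa2.2 with all libraries. There it was 5 with only those lines fitted, 974 with DESeq2 and 20 to 447 with each library left out. For the difference of both differences 12 genes were called with all libraries, 161 with no filter and 272 with DESeq2. That number was 10 without both libraries that stand apart and 0 to 13 with each left out. With all libraries 2298 and 1187 genes had an unadjusted p below 0.05 in edgeR. The parental lines (7) gave 9 called members with DESeq2 and 7 when each library was left out, beside 1207 and 279 to 775 calls over all genes. The dOVA lines (9) gave 7 with only those lines fitted, 8 without both libraries that stand apart and 7 to 10 when each was left out. Over all genes these settings gave 1025, 1717 and 796 to 2578 calls. Fitting replicate numbers as a block gave counts of 5, 1, 10, 9 and 2 in the order of the report, against 4, 1, 7, 9 and 1 without it. Over all tested genes the block called 364, 1084, 1330, 3079 and 118, against 68, 278, 627, 1574 and 12 without it. The pairing of numbers was not shown for MeVa2.2.dOVA with MeVa2.2 and so for the last comparison, where the block called Pcdhgb7 besides Pcdhgb2 and no filter called Pcdhgb7 and Pcdhgb6 besides it. At 0.1 CPM the members detected were 25 in MeVa2.1.dOVA, 32 in MeVa2.1, 28 in MeVa2.2.dOVA and 26 in MeVa2.2, and at 2 CPM they were 7, 12, 10 and 9. The causes of these shifts were not tested, beyond fewer libraries or fewer genes entering a fit. The 35 members left untested by the filter lay under 1 CPM; with no filter, 1 of them, Pcdhga10, was called, between the dOVA lines.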
